A study of Mus musculus with 10 samples.

Results

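The core pluripotency genes followed here were Pou5f1, Sox2, Nanog, Sall4, Lin28a, Dppa2, Dppa4 and Utf1, measured in mouse embryonic stem cells (mESCs). Their probes were taken by gene symbol from an annotation that lists 14288 of the 45281 probes on the bead array, which gave 17 probes for the 8 genes. Of all probes, 17775 were bright enough to be kept, and 14281 of these carry 1 symbol. The annotation thus names almost only kept probes, and dim probes of these genes without an entry could not be found. All 17 probes were detected on all 10 arrays, and each one is reported, because probes of the same gene did not always move together.

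The study altered MMTR/Dmap1, a subunit of the Tip60-p400 chromatin remodeling complex, in CCE mESCs (named G-CCE in the sample records) and profiled them before and after the onset of differentiation. The library labelled MMTR KD came from cells with the lentiviral construct pLV-TH-MMTR/Dmap1_shRNA, which makes a short hairpin RNA against MMTR/Dmap1. The libraries labelled MMTR-F, MMTR-C and MMTR-N came from cells that carried Flag-tagged MMTR in pcDNA3, as the full-length protein, as its C-terminal part or as its N-terminal part. WT mESCs were not transfected and served as the common control. Each line was taken at d3, after 3 days without leukemia inhibitory factor (LIF), and at d0, with LIF. The study's methods describe hanging drops for differentiation and gelatin-coated dishes for mESCs, so culture form and LIF cannot be told apart between the days. WT thus lacks the transfection and the selection that the other lines went through, and the study's methods describe picking of EGFP-positive clones for the hairpin lines and puromycin for the others, without the number of clones behind each array.

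There was 1 array for each of the 5 lines on each of the 2 days. A difference between 2 arrays therefore has no replicate check and is given as a value, and a log2 difference of 0.5 was used to count it. A change between d3 and d0 was tested over the 5 lines with limma, with line and day as terms, and "rose" and "fell" below are used for probes with an adjusted p under 0.05 in that fit. Whether a lower signal came from fewer cells that express a gene or from less RNA in each cell cannot be told apart in such bulk samples.

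Before normalization the median signal of an array lay between 337 and 347 at d3 and between 218 and 244 at d0, so day and array brightness cannot be told apart. Between 16699 and 18837 probes were detected per array. The Dmap1 probe followed the label of MMTR-C but not those of the other altered lines. Its log2 signal minus WT was -0.04 for MMTR KD, -0.24 for MMTR-F, 1.58 for MMTR-C and -0.08 for MMTR-N at d3, and 0.19, -0.11, 1.42 and -0.07 in the same lines at d0. Where the probe lies in the gene was not known, so it need not read the N-terminal construct. The full-length construct includes the C-terminal part, yet the probe was not above WT in MMTR-F on either day. The reason was not tested. The study reported immunoblots of the full-length, N-terminal and C-terminal proteins. All 8 markers of undifferentiated mESCs had a kept probe, but Pou5f1, Sox2 and Nanog among them are also genes followed here. Of the 8, 6 fell, Pou5f1 did not pass and Fut4 rose by 0.35 (adjusted p = 0.0039 in the limma fit). At d0 the detection p of Fut4 was 0.481 in MMTR-F, 0.685 in MMTR-C, 0.138 in MMTR-N and 0.0566 in WT. These lie above the cut of 0.05, and in MMTR KD it was 0.0256. No kept probe was named for 6 of 8 fibroblast markers or 6 of 8 markers of primitive and visceral endoderm. The same held for 6 of 7 trophectoderm, 5 of 6 neuroectoderm and 5 of 6 mesoderm markers. Col1a1, Gata4, Gata6, Sox17, Cdx2, Pax6 and T were among those without one. Of the kept probes, 3494 had no single gene name, so a marker without a named probe may still have been detected.

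Oct4, which Pou5f1 encodes, binds DNA side by side with Sox2, and together with Nanog the pair occupies the regulatory regions of one another's genes and of many other genes of the pluripotent state. Sall4 is a zinc finger protein of the same network, Lin28a is an RNA-binding protein that blocks maturation of the let-7 microRNAs, Dppa2 and Dppa4 are paralogous chromatin proteins that act as a pair, and Utf1 is a chromatin-associated protein found in undifferentiated cells. When LIF is withdrawn, mESCs leave the naive state, and this network is dismantled over days rather than at once, with Oct4 retained for a time in the primed cells that follow.

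The sequence around the start site is shown for the 3 core factors, because Sox2 and Nanog were lower at d3 in every line and Pou5f1 was not, and because paired Oct4 and Sox2 elements are the textbook feature of this network. RefSeq windows on GRCm38.p6, from 250 bases before to 50 bases after the start, were matched by symbol for 5 of the 8 genes. Where the table held 2 windows for a gene (Nanog and Pou5f1), the one at the first base of the gene was used. They were searched on both strands for an OCT core (TTTGCAT), a SOX core (ACAATG), both cores joined with 1 free base between them (TTTGCATNACAATG, which contains the other two motifs) and a GC box (GGGCGG). The windows of Nanog (chr6:122707239-122707538), Sox2 (chr3:34649745-34650044) and Pou5f1 (chr17:35505782-35506081) all lie on the plus strand and are printed with OCT and SOX core matches in capitals:
Nanog: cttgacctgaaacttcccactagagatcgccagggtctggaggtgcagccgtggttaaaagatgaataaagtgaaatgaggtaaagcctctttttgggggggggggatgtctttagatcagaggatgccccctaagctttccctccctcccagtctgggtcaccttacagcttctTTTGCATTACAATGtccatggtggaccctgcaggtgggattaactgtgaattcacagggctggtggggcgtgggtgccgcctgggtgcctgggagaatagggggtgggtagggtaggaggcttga
Sox2: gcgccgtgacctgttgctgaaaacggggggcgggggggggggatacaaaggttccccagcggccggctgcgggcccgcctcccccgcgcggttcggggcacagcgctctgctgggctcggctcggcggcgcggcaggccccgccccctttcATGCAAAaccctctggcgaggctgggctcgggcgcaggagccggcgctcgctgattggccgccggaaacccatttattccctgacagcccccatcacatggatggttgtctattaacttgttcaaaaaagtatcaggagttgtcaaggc
Pou5f1: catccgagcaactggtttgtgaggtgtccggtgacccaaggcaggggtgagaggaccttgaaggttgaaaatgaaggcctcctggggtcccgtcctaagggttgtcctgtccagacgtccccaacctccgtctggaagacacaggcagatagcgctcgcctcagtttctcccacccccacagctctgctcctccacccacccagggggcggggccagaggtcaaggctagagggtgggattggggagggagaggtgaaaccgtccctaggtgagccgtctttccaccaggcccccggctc
The Nanog window held the joined element from 75 to 62 bases before the start. The same 14-base pattern was found in 2 of all 32851 windows of the table, or 0.00609%. The Nanog window printed here is 1 of these 2, and whether the other is the second Nanog window was not examined. The Sox2 window held an OCT core in reverse orientation, from 99 to 93 bases before the start, and 4.63% of all windows held one. No OCT or SOX core was found in the Pou5f1 window, which held 1 GC box, a motif present in 35.7% of all windows and found 2 times in the Sox2 window and 0 times in that of Nanog. Of the windows that are not printed, that of Lin28a, set at a start inside the annotated span of the gene, held a SOX core (12.6% of all windows) in reverse from 96 to 91 bases before the start and 1 GC box, and that of Utf1 held 4 GC boxes and no core. These matches describe letters in the windows and not bound sites. Sequence outside the windows was not searched, so a gene without a match here may hold such elements elsewhere. Whether the matches relate to the changes between the days was not tested.

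Of the 17 probes, 8 fell and 2 rose between d3 and d0, whereas 7 did not pass, while 24.7% of all kept probes fell and 24% rose. Both probes of Sox2, both of Nanog and the only probe of Dppa2 fell. Lin28a and Dppa4 each had probes that fell beside probes that did not, Sall4 and Lin28a each had 1 probe that rose, and no probe of Pou5f1 or Utf1 passed. The median change was -0.32 over the 17 probes and 6e-04 over all kept probes (log2, d3 minus d0). For 6 of the 17 probes the 5 d3 signals did not overlap the 5 d0 signals, as was true of 26.4% of all kept probes. The share of member probes that fell was thus above that of all kept probes, the share that rose was below it, and the share without overlap was not far from it. Probes of 1 gene share their target, so these counts are not of independent members. Without normalization between arrays the change of all kept probes shifted to a median of 0.32 and 87.4% of the called probes rose, against 49.2% here, and 7 member probes fell and 2 rose.

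**Figure D1:**
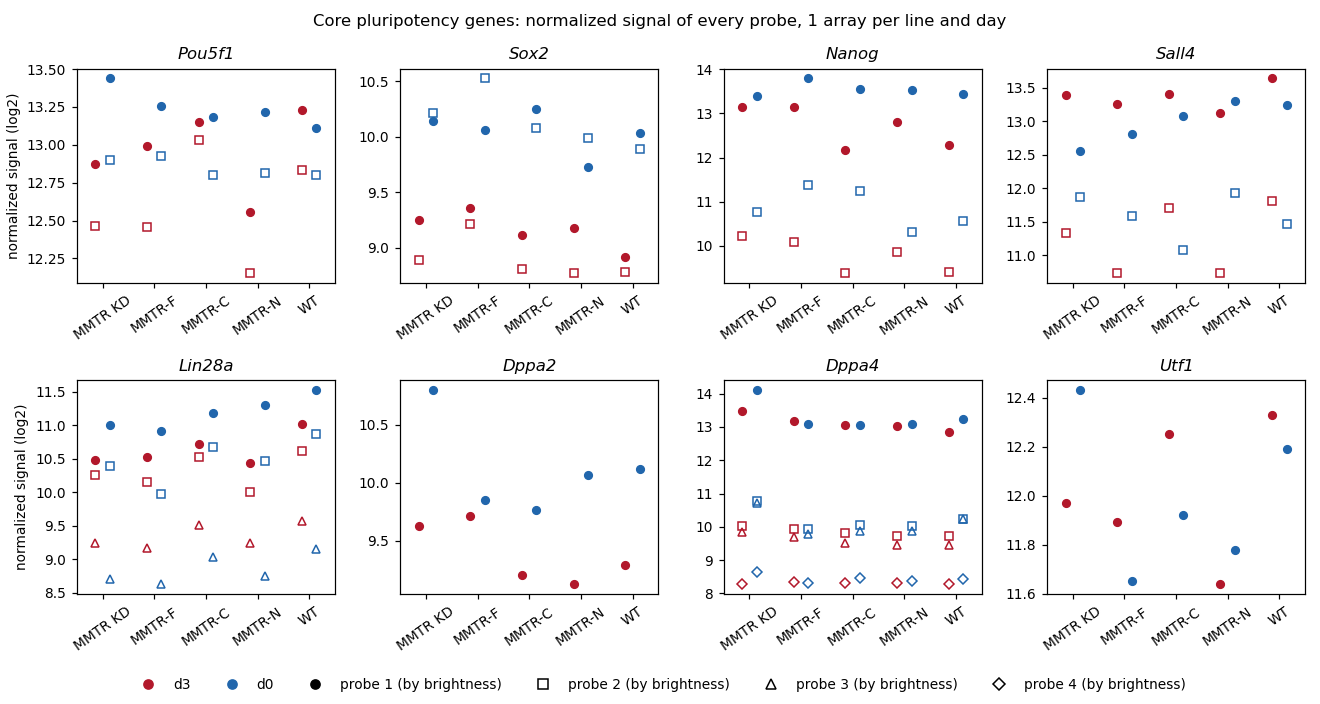
Normalized log2 signal (vertical axis) of every annotated probe of the 8 genes in each line (horizontal axis) at d3 (red) and d0 (blue), 1 array per point, with probe shapes ordered by brightness. Both Sox2 probes and both Nanog probes lie lower at d3 than at d0 in all 5 lines, whereas the days overlap for Pou5f1, Utf1 and both Sall4 probes.

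Pou5f1 (chr17:35506032-35510777) kept a high signal after 3 days without LIF in every line. With probe ILMN_1252910 the log2 signal at d3 was 12.87 for MMTR KD, 13.00 for MMTR-F, 13.15 for MMTR-C, 12.56 for MMTR-N and 13.23 for WT. At d0 it was 13.44 for MMTR KD, 13.26 for MMTR-F, 13.18 for MMTR-C, 13.22 for MMTR-N and 13.11 for WT. MMTR-N at d3 was the lowest of the 10 arrays, WT and MMTR-C at d3 lay among the d0 arrays, and the 2 days overlapped. The mean change of -0.28 (SE 0.115, 4 of 5 lines lower at d3) did not pass the test (adjusted p = 0.076). Probe ILMN_1217100 lay between 12.16 and 13.03 at d3 and between 12.80 and 12.93 at d0, with a mean change of -0.26 (SE 0.126, adjusted p = 0.12). With median scaling in place of quantile normalization both probes passed, at -0.56 (adjusted p = 0.0034) and -0.52 (adjusted p = 0.0073). The first probe also passed without WT (-0.38, adjusted p = 0.027) and the second without MMTR-C (-0.38, adjusted p = 0.031). Oct4 transcript thus varied more between the lines at d3 (SD 0.26 and 0.35 for the probes, n = 5 lines) than at d0 (SD 0.12 and 0.06), without a test of that difference. Both probes placed MMTR-N lowest at d3, 0.67 and 0.68 under WT of that day, and MMTR KD and MMTR-F were lower than WT by 0.36 and 0.24 with the first probe and by 0.37 each with the second. MMTR-C differed from WT at d3 by -0.09 and 0.20. At d0 no line was further than 0.33 from WT with either probe.

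Sox2 (chr3:34649995-34652461), the DNA-binding partner of Oct4, fell with both of its probes. Probe ILMN_1248711 gave 8.89 for MMTR KD, 9.21 for MMTR-F, 8.81 for MMTR-C, 8.77 for MMTR-N and 8.78 for WT at d3, against 10.21 for MMTR KD, 10.53 for MMTR-F, 10.08 for MMTR-C, 9.99 for MMTR-N and 9.89 for WT at d0. The days did not overlap, and each line was lower at d3 by between 1.11 (WT) and 1.32 (MMTR KD). The mean change was -1.25 (SE 0.0537, adjusted p = 1.1e-05), which is 2.37-fold lower at d3, and it had the narrowest spread between lines among the probes that fell (residual SD 0.0607). Probe ILMN_2656102 read 9.25 for MMTR KD, 9.36 for MMTR-F, 9.11 for MMTR-C, 9.18 for MMTR-N and 8.92 for WT at d3, against 10.14 for MMTR KD, 10.06 for MMTR-F, 10.25 for MMTR-C, 9.72 for MMTR-N and 10.04 for WT at d0, and fell by 0.88 (SE 0.0933, adjusted p = 0.00024). The lines were ordered differently by the 2 probes at d0, where MMTR-F was highest with the first (0.63 over WT) and level with WT with the second (0.02 over WT). At d3 MMTR-F was the highest line with both probes, 0.43 and 0.44 over WT.

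Nanog (chr6:122707489-122714633) fell as well, but by an amount that differed between the lines. Probe ILMN_2706623 gave 13.14 for MMTR KD, 13.15 for MMTR-F, 12.18 for MMTR-C, 12.82 for MMTR-N and 12.29 for WT at d3, against 13.39 for MMTR KD, 13.80 for MMTR-F, 13.55 for MMTR-C, 13.53 for MMTR-N and 13.44 for WT at d0. All 5 d3 signals were under all 5 d0 signals, and the d3 arrays parted into MMTR-C and WT at the low end and the other 3 lines above them. The mean change was -0.83 (SE 0.147, adjusted p = 0.0025), made up of -0.25 for MMTR KD, -0.65 for MMTR-F, -1.38 for MMTR-C, -0.71 for MMTR-N and -1.15 for WT. Set against WT at d3, the Nanog signal was greater by 0.85 in MMTR KD, by 0.86 in MMTR-F and by 0.53 in MMTR-N, and the difference was -0.11 in MMTR-C. At d0 the same probe was within 0.36 of WT in every line after quantile normalization. Its raw signal at d0 was 8509 in MMTR KD, against 13600 in WT. Without normalization between arrays the d3 differences from WT shrank to 0.51 in MMTR KD, 0.53 in MMTR-F and 0.31 in MMTR-N. With median scaling they were 0.63, 0.67 and 0.37 in the same lines.

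The second Nanog probe, ILMN_1245732, read 10.23 for MMTR KD, 10.08 for MMTR-F, 9.39 for MMTR-C, 9.86 for MMTR-N and 9.41 for WT at d3, against 10.78 for MMTR KD, 11.39 for MMTR-F, 11.25 for MMTR-C, 10.32 for MMTR-N and 10.57 for WT at d0. It fell by 1.07 (SE 0.188, adjusted p = 0.0024) and again did not overlap between days. MMTR KD, MMTR-F and MMTR-N were 0.82, 0.67 and 0.46 over WT at d3, as with the first probe, and MMTR-C was 0.02 under WT. Without normalization between arrays MMTR KD was 0.61 and MMTR-F 0.46 over WT at d3. The d0 values did not carry over from the first probe, with MMTR-F and MMTR-C 0.82 and 0.68 over WT and MMTR-N 0.25 under it. Over both days together no line passed the test against WT for Nanog, with the smallest adjusted p of 0.27 in MMTR-F (0.61 over WT, SE 0.232). Tfap2c, a trophectoderm marker that mESCs also express, moved with the same lines at d3, by 1.18 for MMTR KD, 2.60 for MMTR-F, -0.11 for MMTR-C and 2.72 for MMTR-N relative to WT, with its raw signal between 801 and 5161 at d3 and between 2028 and 3875 at d0. It was the only 1 of 7 trophectoderm markers with a kept probe named for it, and its part in the Nanog values was not tested.

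**Figure D2:**
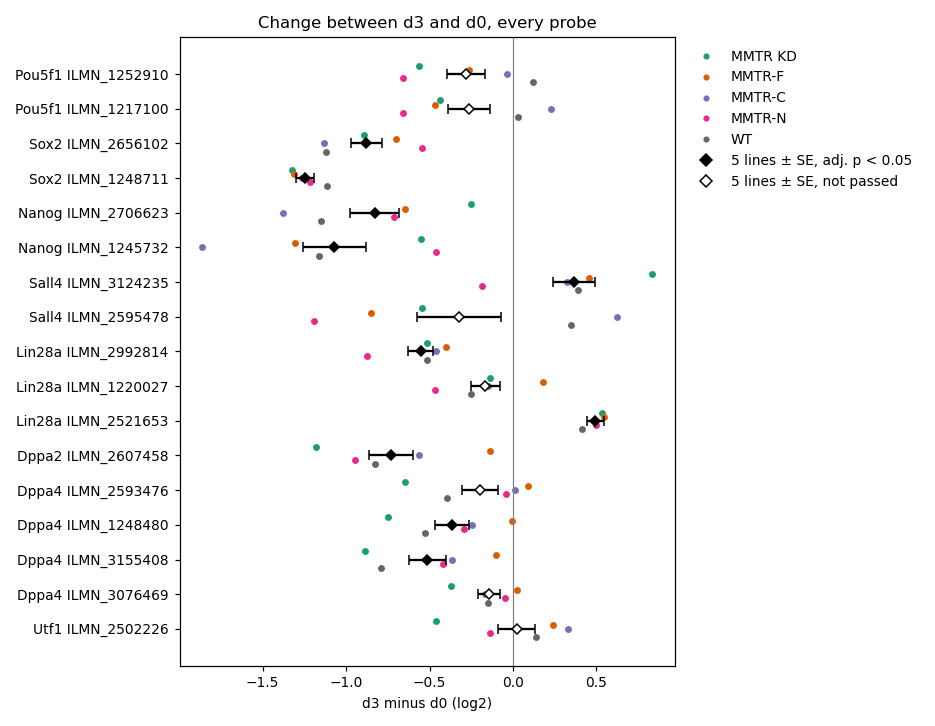
Change between d3 and d0 (horizontal axis, log2) for each probe (rows), with 1 coloured point per line, and diamonds with bars for the mean of 5 lines and its SE, filled where the adjusted p was under 0.05. The Sox2 probe ILMN_1248711 has all lines near its mean of -1.25, whereas Nanog and Sall4 probes are spread widely, and the Sall4 probe ILMN_2595478 has lines on both sides of 0.

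Sall4 (chr2:168748332-168767201) gave a different account with each of its probes, which the annotation pairs with different RefSeq transcripts of the gene. Probe ILMN_3124235 read 13.39 for MMTR KD, 13.26 for MMTR-F, 13.40 for MMTR-C, 13.12 for MMTR-N and 13.64 for WT at d3, against 12.55 for MMTR KD, 12.80 for MMTR-F, 13.07 for MMTR-C, 13.30 for MMTR-N and 13.25 for WT at d0. It rose by 0.36 (SE 0.124, adjusted p = 0.04, higher at d3 in 4 of 5 lines), with MMTR-N as the exception at -0.18. This call was lost under 10 of 15 other settings, where the adjusted p reached 0.59, including the fit without MMTR KD (adjusted p = 0.11).

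The other Sall4 probe, ILMN_2595478, read 11.33 for MMTR KD, 10.74 for MMTR-F, 11.70 for MMTR-C, 10.74 for MMTR-N and 11.82 for WT at d3, against 11.87 for MMTR KD, 11.59 for MMTR-F, 11.08 for MMTR-C, 11.93 for MMTR-N and 11.47 for WT at d0. The lines moved in opposite directions, with d3 minus d0 at -0.55 for MMTR KD, -0.85 for MMTR-F, 0.62 for MMTR-C, -1.19 for MMTR-N and 0.35 for WT, and the mean change of -0.32 did not pass the test (SE 0.25, adjusted p = 0.31). At d3 both probes put WT highest and MMTR-N lowest. The differences from WT at d3 were -0.25 for MMTR KD, -0.38 for MMTR-F, -0.24 for MMTR-C and -0.52 for MMTR-N with the first probe, and -0.49, -1.07, -0.12 and -1.08 in the same lines with the second. At d0 the probes parted, and MMTR KD was 0.70 lower than WT with the first probe and 0.40 higher with the second.

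Lin28a (chr4:134003330-134019196) was measured by 3 probes, of which 1 fell, another rose and the last did not pass. Probe ILMN_2992814 read 10.48 for MMTR KD, 10.52 for MMTR-F, 10.72 for MMTR-C, 10.44 for MMTR-N and 11.02 for WT at d3, against 11.00 for MMTR KD, 10.92 for MMTR-F, 11.18 for MMTR-C, 11.31 for MMTR-N and 11.54 for WT at d0. It fell by 0.55 (SE 0.0747, adjusted p = 0.00068), lower at d3 in each line, although the days overlapped because WT at d3 was above MMTR KD and MMTR-F at d0. Probe ILMN_1220027 read 10.25 for MMTR KD, 10.16 for MMTR-F, 10.53 for MMTR-C, 9.9997 for MMTR-N and 10.62 for WT at d3, against 10.39 for MMTR KD, 9.98 for MMTR-F, 10.68 for MMTR-C, 10.46 for MMTR-N and 10.87 for WT at d0. Its mean change of -0.17 did not pass (SE 0.0867, adjusted p = 0.15), with MMTR-F higher at d3 and the other 4 lines lower. It passed with median scaling (-0.32, adjusted p = 0.019) and without MMTR-F (-0.25, adjusted p = 0.032), and was -0.04 without normalization (adjusted p = 0.81).

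The dimmest Lin28a probe, ILMN_2521653, for which the annotation gives the gene and no transcript, read 9.24 for MMTR KD, 9.17 for MMTR-F, 9.51 for MMTR-C, 9.24 for MMTR-N and 9.57 for WT at d3, against 8.71 for MMTR KD, 8.63 for MMTR-F, 9.03 for MMTR-C, 8.75 for MMTR-N and 9.16 for WT at d0. It rose by 0.49 (SE 0.0493, adjusted p = 0.00018), and each line was higher at d3 by between 0.41 and 0.55 with no overlap between the days. Its change thus had the opposite sign to that of ILMN_2992814 in every line, by between 0.92 and 1.37 on the log2 scale. WT had the highest Lin28a signal with each of the 3 probes on each of the 2 days, MMTR-C stood next to it at d3, and MMTR-F was lowest at d0, whereas the place of MMTR-N differed between the probes. Over both days, MMTR KD was below WT by 0.54 (SE 0.118, adjusted p = 0.053), 0.42 (SE 0.137, adjusted p = 0.14) and 0.39 (SE 0.0779, adjusted p = 0.04) with the probes in the order given. MMTR-F was below WT by 0.56, 0.68 and 0.46 (adjusted p = 0.093, 0.089 and 0.064). The value of 0.39 in MMTR KD was the only one of all line contrasts that passed for a member, and it was lost under 6 of 12 other settings, which were either background correction, a prior that depends on the mean signal (adjusted p = 0.06) and the fits without MMTR-F (adjusted p = 0.064), MMTR-C (adjusted p = 0.069) or MMTR-N (adjusted p = 0.056).

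**Figure D3:**
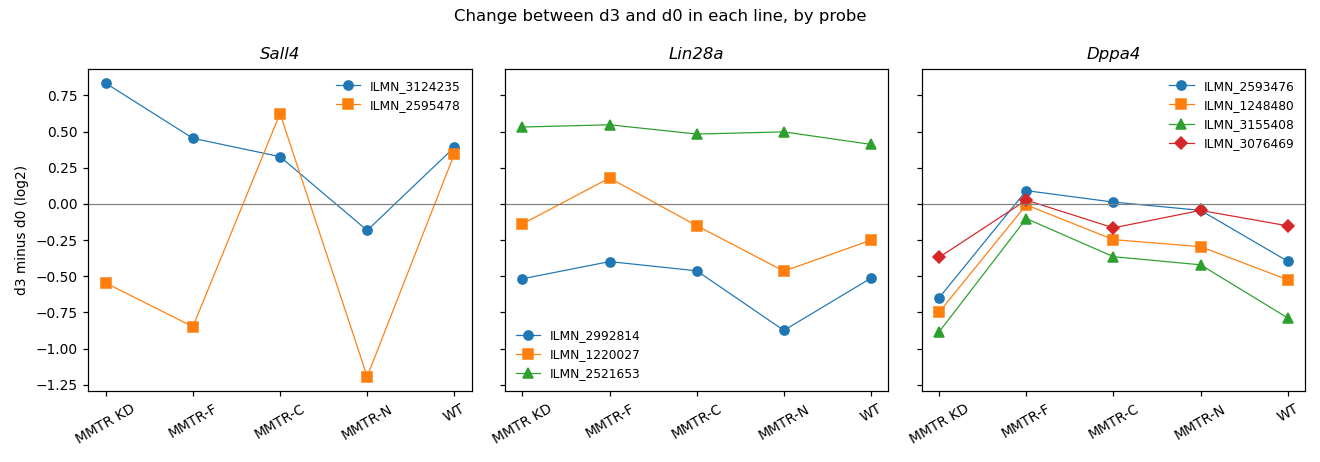
Change between d3 and d0 (vertical axis, log2) in each line (horizontal axis) for each probe of Sall4, Lin28a and Dppa4, with lines drawn between points only to join the values of a probe. The 3 Lin28a probes run apart from each other, 1 of them above 0 in all lines and 1 below 0 in all lines. The 4 Dppa4 probes are all lowest in MMTR KD and highest in MMTR-F, although the dim ILMN_3076469 puts MMTR-C under WT, unlike the others.

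Dppa2 (chr16:48310274-48319513) and Dppa4 (chr16:48283735-48294292) are neighbours on the chromosome and shared 1 array that stood above the rest. The Dppa2 probe ILMN_2607458 read 9.62 for MMTR KD, 9.71 for MMTR-F, 9.20 for MMTR-C, 9.12 for MMTR-N and 9.29 for WT at d3, against 10.80 for MMTR KD, 9.85 for MMTR-F, 9.76 for MMTR-C, 10.07 for MMTR-N and 10.12 for WT at d0. It fell by 0.73 (SE 0.134, adjusted p = 0.0029) without overlap between the days, although the difference in MMTR-F was only -0.14. The brightest Dppa4 probe, ILMN_2593476, read 13.47 for MMTR KD, 13.18 for MMTR-F, 13.06 for MMTR-C, 13.04 for MMTR-N and 12.85 for WT at d3, against 14.12 for MMTR KD, 13.08 for MMTR-F, 13.05 for MMTR-C, 13.09 for MMTR-N and 13.24 for WT at d0. Here the mean change was -0.20 (SE 0.109, adjusted p = 0.17; -0.47 with median scaling, adjusted p = 0.0039), with -0.65 for MMTR KD and -0.40 for WT and values between -0.04 and 0.09 for the other 3 lines.

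Probe ILMN_3155408 of Dppa4 read 9.83 for MMTR KD, 9.68 for MMTR-F, 9.52 for MMTR-C, 9.45 for MMTR-N and 9.45 for WT at d3, against 10.72 for MMTR KD, 9.78 for MMTR-F, 9.89 for MMTR-C, 9.87 for MMTR-N and 10.24 for WT at d0, and fell by 0.51 (SE 0.111, adjusted p = 0.0064). Probe ILMN_1248480 lay between 9.71 and 10.04 at d3 and between 9.93 and 10.79 at d0, and fell by 0.36 (SE 0.1, adjusted p = 0.018), a call that 3 of 15 other settings did not keep, the fit without WT among them (adjusted p = 0.056). The dim probe ILMN_3076469, at 8.28 to 8.35 at d3 and 8.33 to 8.65 at d0, changed by -0.14 (SE 0.0662, adjusted p = 0.11), and its sign turned to 0.34 without normalization between arrays and to 0.059 after median scaling. All 4 Dppa4 probes had their smallest d3 minus d0 difference in MMTR KD and their largest in MMTR-F. The detection p of ILMN_3076469 reached 0.047, and its d3 signals had r between -0.026 and 0.017 with those of the other Dppa4 probes.

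MMTR KD at d0 had the highest normalized signal of all 10 arrays with the Dppa2 probe and with each of the 4 Dppa4 probes. After quantile normalization it was over WT of that day by 0.69 for Dppa2 and by 0.88, 0.55, 0.48 and 0.22 for the Dppa4 probes from the brightest to the dimmest, whereas MMTR-F, MMTR-C and MMTR-N were between -0.46 and 0.04 relative to WT for these 5 probes. Without normalization between arrays the difference shrank to 0.13 for Dppa2, 0.19 for the brightest Dppa4 probe and -0.0046 for ILMN_1248480. The raw signals at d0 of the 3 dimmer Dppa4 probes were 1362, 1300 and 310.7 in MMTR KD, against 1366, 1371 and 318.4 in WT, so that MMTR KD was above WT for these probes only after normalization. At d3 MMTR KD was 0.33 over WT for Dppa2, and the differences for the Dppa4 probes in the same order were 0.62, 0.33, 0.38 and 0.002. Over both days the MMTR KD differences for the Dppa4 probes were 0.75, 0.44, 0.43 and 0.11, and none passed (adjusted p = 0.059, 0.18, 0.22 and 0.61). The same MMTR KD array at d0 also had 10.74 for the endoderm marker Dab2, against 8.70 in WT, while Gata4, Gata6 and Sox17 had no kept probe named for them. At d3 Dab2 was 10.96 in MMTR KD and 10.01 in WT. Sox7, the other measured endoderm marker, was 9.67 in MMTR KD at d0, against 8.89 in WT and 10.05 in MMTR-C. The summed raw signal of the 2 measured endoderm markers of 8 (Dab2 and Sox7) lay between 1226 and 2427 at d3 and between 616.2 and 1952 at d0, and the part of such cells in the Dppa2 and Dppa4 values was not tested.

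Utf1 (chr7:139943856-139945112), represented by the single probe ILMN_2502226, read 11.97 for MMTR KD, 11.89 for MMTR-F, 12.25 for MMTR-C, 11.64 for MMTR-N and 12.33 for WT at d3, against 12.43 for MMTR KD, 11.65 for MMTR-F, 11.92 for MMTR-C, 11.78 for MMTR-N and 12.19 for WT at d0. The days overlapped throughout, 3 lines were higher and 2 lower at d3, and the mean change was 0.02 (SE 0.112, adjusted p = 0.88), or -0.19 after median scaling. Utf1 was lower than WT at d3 by 0.36 for MMTR KD, 0.44 for MMTR-F, 0.07 for MMTR-C and 0.69 for MMTR-N. At d0 its difference from WT was 0.24 for MMTR KD, -0.54 for MMTR-F, -0.27 for MMTR-C and -0.41 for MMTR-N.

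Within single lines, the number of the 17 member probes lower at d3 than at d0 by at least 0.5 was 10 in MMTR KD (8.01% of all kept probes), 5 in MMTR-F (6.5%), 5 in MMTR-C (8.76%), 8 in MMTR-N (8.46%) and 8 in WT (8.75%). The 5 in MMTR-F and in MMTR-C were both probes of Sox2, both of Nanog and 1 more each, the second Sall4 probe in MMTR-F and Dppa2 in MMTR-C. In WT the list was Sox2, Nanog, Dppa2, the first Lin28a probe and 2 Dppa4 probes. MMTR KD added Pou5f1, the brightest Dppa4 probe and the second Sall4 probe to these genes, although its brighter Nanog probe was not among them. In MMTR-N the 8 were both probes of Pou5f1 and of Sox2 and 1 each of Nanog, Sall4, Lin28a and Dppa2. In each line the lower probes made up a larger share of the 17 probes than of all kept probes. Member probes higher at d3 by at least 0.5 numbered 2 in MMTR KD (8.56% of all kept probes), 1 in MMTR-F (6.85%) and 1 in MMTR-C (9.42%). MMTR-N (8.93%) and WT (9.31%) had 0.

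Relative to WT at d3, MMTR KD had 3 member probes higher and 1 lower by at least 0.5 (6.22% of all kept probes in either direction), the higher ones being both Nanog probes and the brightest Dppa4 probe. MMTR-F had 2 higher, both of Nanog, and 1 lower, of Sall4 (7.13%), and MMTR-C had 0 in either direction (0.99%). MMTR-N had 1 higher, of Nanog, and 7 lower, which were both probes of Pou5f1, both of Sall4, 2 of Lin28a and that of Utf1 (8.35%). These contrasts share 1 WT array, so a low or high value in it moves all 4 of them.

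At d0, MMTR KD had 3 member probes higher (Dppa2 and 2 of Dppa4) and 2 lower (1 of Sall4 and 1 of Lin28a) than WT by at least 0.5 (9.64% of all kept probes). MMTR-F had 2 higher, 1 each of Sox2 and Nanog, and 4 lower, which were all 3 Lin28a probes and Utf1 (5.19%). MMTR-C had 1 Nanog probe higher (4.8%), and MMTR-N had 0 (3.23%). When both days were fitted together, 1 of the 17 member probes passed for MMTR KD (3.31% of all kept probes) and 0 for MMTR-F (0.045%), MMTR-C (0.0169%) and MMTR-N (0.0731%). Both days of a line come from 1 established line, so these tests do not measure the spread between independently made lines.

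**Figure D4:**
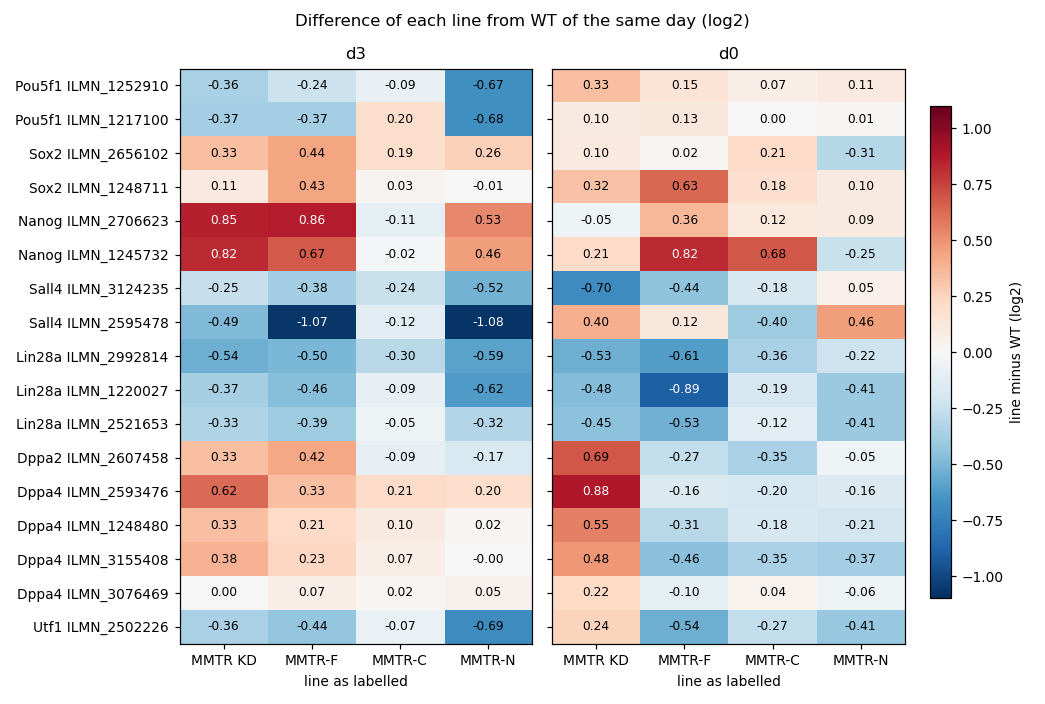
Log2 difference of each line from WT (columns) at d3 (left) and at d0 (right) for each probe (rows), 1 array against 1, with red for higher and blue for lower than WT. At d3 both Nanog probes are higher in MMTR KD, MMTR-F and MMTR-N while Pou5f1, Sall4, Lin28a and Utf1 are lower. The largest MMTR-C difference from WT at d3 is -0.3048, and at d0 Dppa2 and Dppa4 are higher in MMTR KD.

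Other genes of the pathway, from lists chosen with earlier results of these data known, were read with the brightest probe per gene. Some genes are in more than 1 list. Beside all list counts below, 24.7% of all kept probes fell and 24% rose. Among 16 measured of 20 other genes of the undifferentiated ES cell, 11 fell, 2 rose and 3 did not pass, with a median change of -0.66. The largest falls were those of Tcl1, an Akt coactivator, at -2.43 (adjusted p = 0.00024), Fbxo15, a classical Oct4 and Sox2 target, at -1.90 (adjusted p = 0.00093) and Gdf3, a TGF-beta family ligand, at -1.86 (adjusted p = 6.4e-05). These 3 falls exceeded the fall of Nanog and that of either Sox2 probe. At d3 Tcl1 was 1.90 over WT in MMTR-F and 0.94 over it in MMTR-N. Fbxo15 was 1.73 over WT in MMTR-N and 1.59 over it in MMTR-F. In MMTR KD and MMTR-C the differences were -0.31 and -0.15 for Tcl1 and -0.07 and 0.01 for Fbxo15.

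Of 13 listed Oct4 and Sox2 target genes, 11 were measured, 6 fell, 2 rose and 3 did not pass (median change -0.22), while Pou5f1 itself did not pass and Sox2 fell. Fbxo15, Tdgf1 and Rif1, which fell, and Zscan10, which did not pass, were counted in the ES cell list too. The 2 that rose were Fgf5, a growth factor of the primed epiblast, by 3.58 (adjusted p = 1.2e-05), and Otx2, a homeobox factor of the same state, by 2.28 (adjusted p = 0.00012). Lefty1, a Nodal inhibitor, did not pass (0.09) but was over WT at d3 in every altered line. The differences were 3.30 in MMTR-N, 3.24 in MMTR-F, 1.45 in MMTR KD and 1.16 in MMTR-C. Upp1, a uridine phosphorylase, was over WT at d3 by 1.98 in MMTR KD, 1.51 in MMTR-N, 1.17 in MMTR-F and 0.68 in MMTR-C. These differences share the same WT array. Of 14 measured partners of the Oct4, Nanog and Sall4 proteins, 3 fell, 1 rose and 10 did not pass (median -0.04). The share of partners that fell was not far from the 24.7% of all kept probes. The partners that changed most were Wdr5, a subunit of histone H3 lysine 4 methyltransferase complexes (-0.63), Trim28, a corepressor (-0.61), and Thap11 (0.34). The partners furthest from WT at d3 were Thap11 (-0.76) and Nacc1 (-0.60), both in MMTR KD. Both were under WT in the other altered lines too, by less.

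Of 14 measured genes of the Lin28 and let-7 pathway, 5 rose, 1 fell and 8 did not pass (median 0.18). Nr6a1, an orphan nuclear receptor, rose by 1.12, Igf2bp3, an RNA-binding protein, by 0.73 and Ago2, the slicing Argonaute, by 0.66, and at d3 Igf2bp3 was 1.00 under WT in MMTR-N and Nr6a1 was 1.00 under WT in MMTR-F. Of 10 measured relatives of Pou5f1, Sox2 and Sall4 in the POU, SOX and SALL families, 5 rose, 4 fell and 1 did not pass (median 0.57). The largest rises were those of Pou3f1 (2.32), Sall2 (2.29) and Sox11 (2.22), factors known from the epiblast or the nervous system, and at d3 Sall2 was 1.93 under WT in MMTR-N and Pou3f1 1.55 under WT in MMTR-F. None of 18 two-cell genes listed as downstream of Dppa2 and Dppa4, such as Zscan4c, had a kept probe named for it.

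The genes whose signal over the 10 arrays was most like that of each member were taken from 9393 named genes by Pearson's r, given as a description because the arrays share lines and days. For Sox2 they were Csrp2, a LIM domain protein, and Zfp296, a zinc finger factor of ES cells (r = 0.982 each), and for Nanog they were Dbt, a subunit of the branched-chain ketoacid dehydrogenase, and Zfp267 (r = 0.967 each). Pou5f1 was closest to Ppip5k2 (r = 0.96) and Atxn7l3, a subunit of the SAGA deubiquitinase module (r = 0.926). Sall4 was closest to Rab5if (r = 0.942) and the histone chaperone gene Set (r = 0.936), and Lin28a to Twnk, the mitochondrial DNA helicase (r = 0.957), and Ptges3l (r = 0.945). Dppa2 was closest to Pus1, a pseudouridine synthase (r = 0.957), and Cd3eap (r = 0.953), Dppa4 to Rnf17 (r = 0.945) and Nod1 (r = 0.944), and Utf1 to Purb (r = 0.966) and Ap4s1 (r = 0.903). None of these pairs joined 2 members, since the members were left out of the search.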

How the data were processed

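RNA of 5 mESC lines at d3 and d0 was amplified to biotin-labelled cRNA and measured on Illumina Mouse WG-6 bead arrays, 1 array per line and day. The design text speaks of duplicated profiles, but each line has a single column on each day, and no sample column was left unused. The authors deposited the mean bead intensity of 45281 probes and a detection p-value for each, written by BeadStudio 3.2 per the submitters' processing notes or by GenomeStudio per the study's methods. A table of log2 values for 16652 probes was deposited too, and it was within 0.044 of the intensities after log2 and quantile normalization.

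A probe was kept when its detection p-value was at most 0.05 on 5 or more of the 10 arrays (17775 probes), intensities were put on a log2 scale (floor 1, reached by 0) and quantile normalized. Genes were named from the platform table, which lists 14288 probes (14281 kept probes with 1 symbol). limma 3.58.1 in R 4.3.3 took line and day as terms (two-sided, Benjamini-Hochberg over all kept probes, threshold 0.05) and was tested on simulated data. The number of arrays limits the precision. Gene coordinates and start-site windows are those of RefSeq on GRCm38.p6. The members and gene lists were chosen with earlier results of these data known. Named beside them were Dmap1, up to 3 genes of each list with the largest called day change and up to 2 furthest from WT at d3, and the 2 genes most correlated with each member. Alternatives covered background correction, normalization, filter, table, variance prior, line as a term, the methods' t-test and leaving out each line. Python 3.11.15 drew the figures.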

Additional observations from a re-analysis of the deposited data

Results flagged for a closer look

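The Sall4 probe ILMN_2595478 was singled out because lines moved in opposite directions under the same comparison. The d3 minus d0 difference was negative for MMTR KD (-0.55), for MMTR-F (-0.85) and for MMTR-N (-1.19), and positive for MMTR-C (0.62), as it was for WT (0.35). Each value is 1 array against 1, and the difference between lines was not tested.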

How the results depend on the processing

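With probes as counted above, 8 member probes fell, and 7 to 12 did under the other settings, while between 6633 and 12238 of all probes were called for the day, against 8657. The 2 that rose became 1 under the RMA background model, normexp background, median scaling, the fit with no replicate block (day without line) and the methods' test after Benjamini-Hochberg adjustment, and between 1 and 2 when a line was left out. The fit with no replicate block called 7 member probes as fallen, and the methods' test called 10 before and 8 after adjustment. The 1 member probe called in a line against WT became 0 under either background correction, 2 with median scaling, 3 without normalization, 2 with detection on all 10 arrays and 3 with no filter, and between 0 and 1 when a line was left out. Sox2, Nanog, Dppa2, Lin28a ILMN_2992814 and ILMN_2521653 and Dppa4 ILMN_3155408 kept their direction and their call under all 15 settings with a test. Both Pou5f1 probes, Lin28a ILMN_1220027 and Dppa4 ILMN_2593476 passed as lower at d3 with median scaling. Utf1 turned to -0.19 with median scaling and lay between -0.055 (without MMTR-C) and 0.14 (without MMTR KD) when a line was left out, at -0.03 without MMTR-F and -0.01 without WT. Dppa4 ILMN_3076469 turned to 0.059 with median scaling and to 0.34 without normalization (adjusted p = 0.0031), and Dppa4 ILMN_1248480 in MMTR KD minus WT at d0 to -0.0046 without normalization. Without normalization the median change of all probes was 0.32 and 87.4% of called probes rose, against 54.6% with median scaling. Of 216 values of the 27 differences from WT past 0.5, 187 moved by less than the spread, 28 moved by more and 1 reversed. The causes were not tested. Dim probes such as ILMN_3076469 and ILMN_2521653 lie closest to background.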
